A study of Homo sapiens with 12 samples.

Results

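Of the 3 LACTB knock-out clones of this series, 2 lost most of their LACTB transcript, and the iMGLs grown from them, clones A and C, were compared with the iMGLs of the 3 WT clones, J, K and L. The clones were chosen by the readout itself: a LACTB KO clone was taken where LACTB stayed under 20 CPM (the count of a gene divided by the sum of its library and multiplied by 1000000) in both of its libraries. This gave 4 of the 12 libraries of the series, 2 per clone, against 6 WT libraries. The third LACTB KO clone, B, with 2 libraries, is shown beside them as a partial loss of the transcript. iMGLs are microglia-like cells derived from induced pluripotent stem cells, here from WTC11, an established human line. All clones, WT and KO, came out of CRISPR editing of WTC11 by non-homologous end joining, and each was taken through 2 separate differentiations, by way of hematopoietic precursors, in medium with IL34, TGFb and MCSF. CX3CL1 and CD200 were added for the last 3 days in every culture, and no further treatment was given. Each genotype is thus represented by clonal lines of 1 parent line. For counts summed per clone, p-values measure the spread between these sums. That spread holds differences between the cultures of a clone as well as differences between clones. Libraries are named by clone and differentiation, so that A2 is clone A in differentiation 2.

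LACTB encodes a serine beta-lactamase-like protein that assembles into filaments in the mitochondrial intermembrane space. It has been tied to the shape of mitochondrial membranes, to phospholipid and neutral lipid metabolism and to the breakdown of succinylcarnitine, a carnitine ester of succinate. Microglia are the macrophages of the brain, which clear debris and dying cells and present antigen. A cell that makes less LACTB could therefore be looked at for genes of respiration, of the inner membrane, of carnitine and lipid handling and of the microglial programmes of clearance and inflammation.

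The gene LACTB (ENSG00000103642.12) spans 63121833 to 63142061 on chromosome 15 (GRCh38, plus strand). Its level was 9.77 and 9.34 CPM in libraries A1 and A2 and 8.23 and 7.42 CPM in C1 and C2, that is 201 to 258 counts per library. The 6 WT libraries had 71.1 CPM (J1), 76.5 CPM (J2), 78.6 CPM (K1), 98.4 CPM (K2), 79.9 CPM (L1) and 74.0 CPM (L2), and clone B had 44.3 and 52.6 CPM. The 4 strong-loss libraries lay close together and far under every other library, with none between 9.77 and 44.3 CPM, the values just inside and just outside the limit. The means were 8.69 ± 1.07 CPM (SD, n = 4) and 79.7 ± 9.69 CPM (SD, n = 6), so that clones A and C kept 10.9% of the WT mean, a 9.17-fold lower level, and clone B kept 60.7%. Clone A kept 12% and clone C 9.81%. Since these values chose the clones, they are a description and were not tested. They are transcript levels and do not show how much protein was left. The paper reports that sequencing both alleles of its clones found indels that gave frameshifts or premature stop codons. Partial loss therefore names the transcript level of clone B, not a known amount of protein.

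**Figure D1:**
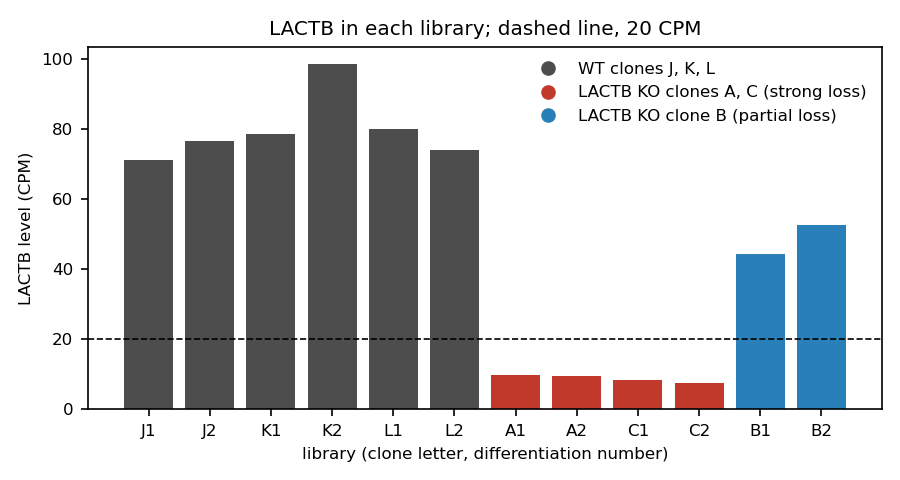
LACTB level in CPM (vertical axis) in each of the 12 libraries (horizontal axis, clone letter and differentiation number), with the limit of 20 CPM as a dashed line. The 4 libraries of clones A and C stand between 7.42 and 9.77 CPM, clone B at 44.3 and 52.6 CPM, and the WT libraries between 71.1 and 98.4 CPM.

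The libraries held between 24153233 and 28406943 counts, with a median of 27575100 in WT and 27359010.5 in LACTB KO libraries. Genes shared by macrophages and microglia were well expressed in the WT and in the strong-loss libraries. AIF1, a calcium-binding protein of macrophages, stood between 338.5 and 423.8 CPM in WT and between 349.5 and 410.6 CPM in the strong-loss libraries. CSF1R, the receptor for IL34 and MCSF, ranged over 1303 to 2132 CPM and 1725 to 2016 CPM, and TYROBP, the signaling partner of TREM2, over 380.2 to 437.1 CPM and 382.2 to 455.5 CPM. SALL1 and TMEM119, which mark microglia in the brain, were near the limit of detection, at 0.331 to 0.745 CPM and 0.471 to 1.16 CPM in the strong-loss libraries, and at most at 0.916 and 10.1 CPM in WT. Apart from their genotype the WT libraries were not alike. Transcripts of the stromal marker list summed to 7662 CPM in J1 and 8717 CPM in K2, against 1065 to 2123 CPM in the other WT libraries and 1021 to 1372 CPM in the strong-loss libraries.

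Outside LACTB, no gene separated the strong-loss clones from the WT clones by the test. With edgeR's quasi-likelihood test on counts summed per clone (2 clones against 3), 0 of 18099 genes had an adjusted p under 0.05 (0%), and the smallest adjusted p was 0.455. At an unadjusted p under 0.05 there were 887 genes (4.9%), 70 of them higher (0.387%) and 817 lower (4.51%) in the strong-loss clones. The imbalance was large: of the lower genes, 721 had a log2 fold change below -1, and of the higher genes, 26 had one above 1. The median log2 fold change was -2.40 over the lower and 0.88 over the higher genes, while over all genes tested it was 0.01. With the differentiation as replicate block over single libraries, the counts at an unadjusted p were 121 higher and 721 lower, and again 0 after adjustment. DESeq2 on the same sums gave 315 lower and 2 higher genes with an adjusted p under 0.05, and 149 lower and 7 higher genes passed in edgeR once WT clone L was left out. Leaving out J1 and K2, the WT libraries richest in stromal markers, was an alternative added after the data were seen. It took the unadjusted count of lower genes from 817 to 190 and that of higher genes from 70 to 52. After adjustment, 0 genes had a p under 0.05.

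FLNC had the smallest p among the lower genes, and it is described here with TAGLN and CAV1, 2 further genes of small p that were picked after their values were seen. All 3 were highest in the WT libraries J1, K2 and L1. FLNC, an actin crosslinker of muscle, had 0.952, 0.217, 0.224 and 0.443 CPM in A1, A2, C1 and C2. In the WT libraries it ran from 0.467 through a median of 9.13 to 26.4 CPM, so that the groups overlapped at the low end, and clone B had 1.05 and 3.34 CPM. TAGLN, an actin-binding protein of smooth muscle, had 10.6, 2.09, 3.92 and 1.89 CPM in the strong-loss libraries. The WT libraries ran from 1.99 to 125.1 CPM with a median of 36.5 CPM, with J1, K2 and L1 high and K1 and L2 low. CAV1, the coat protein of caveolae, stood at 0.0724 to 0.298 CPM in the strong-loss and at 0.0359 to 13.1 CPM in the WT libraries. The log2 fold changes were -4.56 for FLNC, -3.59 for TAGLN and -4.60 for CAV1 (standard errors, SE, 0.435, 0.479 and 0.551), each with an adjusted p of 0.455.

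The lists of cell type markers describe the same imbalance by groups of genes. They were chosen with earlier results of these data known, and their members are not independent, so they are no separate support for it. Of all genes tested, 48.6% had a negative log2 fold change and 4.51% an unadjusted p under 0.05 with lower values. Of 27 stromal markers tested, 26 had a negative log2 fold change and 22 an unadjusted p under 0.05 with lower values in the strong-loss clones (median -4.36). Of 28 collagen chains, 25 were negative and 17 had such a p (median -2.90), and of 13 smooth muscle and pericyte markers, 13 were negative and 10 had such a p (median -3.59). None of them passed after adjustment. COL1A1, a chain of the main fibrillar collagen, had 49.4, 16.7, 11.1 and 7.08 CPM in the strong-loss libraries. In WT it had 3652 and 2376 CPM in J1 and K2, 227.8 and 216.9 CPM in J2 and L1, and 7.40 and 18.9 CPM in K1 and L2. The strong-loss libraries therefore lay nearer to K1 and L2, the 2 WT libraries with the least collagen, than to the other WT libraries. A1 stood above both of them, and C2 just under K1. FN1, the matrix glycoprotein fibronectin, repeated this order, with 82.0 to 220.8 CPM in the strong-loss libraries, 95.9 and 112.1 CPM in K1 and L2 and 3602 and 5381 CPM in J1 and K2. Summed over the collagen list, the WT libraries ranged from 192.4 to 11960 CPM, the strong-loss libraries from 176.4 to 309.7 CPM, and clone B had 318.6 and 1622 CPM. Without J1 and K2 the medians were -1.85 for stromal, -1.71 for collagen and -1.41 for smooth muscle markers. Both libraries had been picked for the highest stromal sums in WT, so a shift of the stromal median was built into the choice. Collagen and smooth muscle sums were highest in the same 2 libraries. In bulk RNA, fewer cells of a type and less RNA per cell cannot be told apart, and the part that stromal transcripts had in the other differences was not tested.

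**Figure D2:**
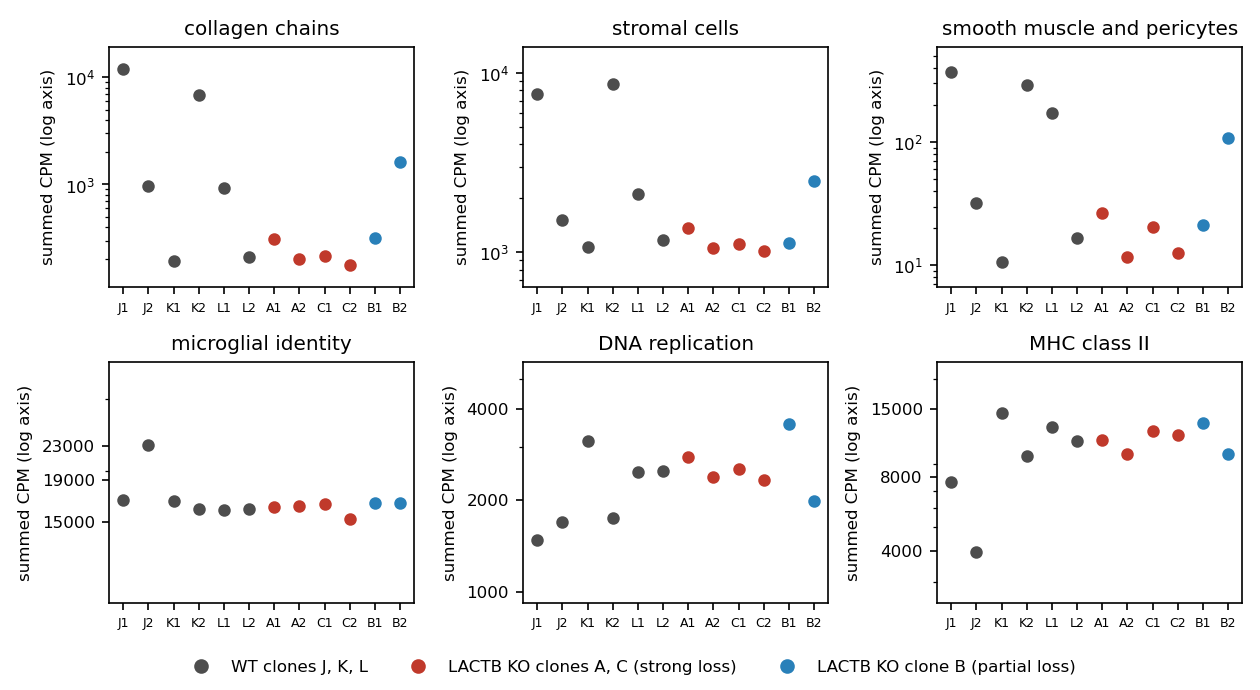
Summed level in CPM (vertical axes, logarithmic) of 6 lists of genes in each library (horizontal axes). Collagen, stromal and smooth muscle transcripts are high in WT J1 and K2 and low in all 4 strong-loss libraries and in WT K1 and L2, while the microglial identity list stands at 15210 to 16580 CPM in the strong-loss libraries and reaches 23100 CPM only in WT J2.

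Genes in which all 4 strong-loss libraries lay under all 6 WT libraries numbered 92 of 18099 (0.508%), and those in which all 4 lay above numbered 46 (0.254%). Among these, the protein-coding genes with the smallest p on either side, 15 lower and 14 higher, are described here. Each had a mean of at least 5 CPM in a group. An unadjusted p under 0.05 was found in all 15 lower genes, but in only 6 of the 14 higher ones. None passed the test, with adjusted p from 0.573 to 0.779 on the lower and from 0.632 to 0.966 on the higher side, and the separation from WT was part of how they were chosen. Over the 15 lower genes the median log2 fold change was -1.65, and 12 were below -1. Over the 14 higher genes it was 0.29, and 1 was above 1.

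Among the lower genes, several encode proteins of the matrix and of the cell surface. LAMB2, a laminin chain of basement membranes, had 4.26, 2.39, 3.99 and 3.47 CPM in A1, A2, C1 and C2, against 5.92 to 46.3 CPM in WT (median 17.9 CPM). The lowest WT library, L2 at 5.92 CPM, stood above the highest strong-loss library, A1 at 4.26 CPM, whereas J1 had 46.3 CPM. DCBLD2, a transmembrane receptor of vascular cells, had 10.1, 7.97, 9.95 and 9.41 CPM against 10.6 to 21.8 CPM in WT. It had the smallest p of the 15, with a log2 fold change of -0.72 (SE 0.135, adjusted p = 0.573). SDC4, a heparan sulfate proteoglycan of focal adhesions, had 4.89 to 6.79 CPM against 6.85 to 15.1 CPM, and differed by -0.84 on the log2 scale (SE 0.228, adjusted p = 0.699). ADGRG6, an adhesion G protein-coupled receptor, had 10.6 to 15.4 CPM against 16.2 to 43.9 CPM. COL16A1, a collagen chain, was close to 0 in the strong-loss libraries, at 0.0362 to 0.207 CPM, and at 0.251 to 34.9 CPM in WT. WLS, the carrier that takes Wnt proteins to the cell surface, had 1.37, 0.435, 1.53 and 1.59 CPM against 3.2 to 19.9 CPM in WT, where both libraries of clone J were highest.

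Other lower genes act inside the cell. LMNA, which encodes the A-type nuclear lamins, had 16.9, 10.5, 16.6 and 15 CPM in the strong-loss libraries. WT clone J had 35.9 and 67.2 CPM, clone K had 40.1 and 71.4 CPM, clone L had 22.9 and 19.8 CPM, and clone B had 25.9 and 33.6 CPM. Clone L thus stood nearest to the strong-loss clones, and the log2 fold change was -1.57 (SE 0.435, adjusted p = 0.706). OPTN, an autophagy receptor, had 4.43, 1.70, 4.28 and 3.80 CPM against 5.47 to 34.4 CPM in WT. CKAP4, a membrane protein of the endoplasmic reticulum, had 2.99 to 4.55 CPM against 4.80 to 52.4 CPM, with K1 and L2 barely above the strong-loss libraries. IGF2BP3, an RNA-binding protein of fetal tissues, had 10.5, 14.6, 13.7 and 8.53 CPM against 16.2 to 37.2 CPM, and differed by -0.99 on the log2 scale (SE 0.260, adjusted p = 0.699). Without J1 and K2 its log2 fold change was -1.19, whereas that of CKAP4 went from -2.59 to -1.53. The remaining 5, AKAP12, PFN2, DLG5, TTC28 and SAMD4A, had log2 fold changes between -2.35 and -1.51. K1 or L2 held the lowest WT value of each.

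**Figure D3:**
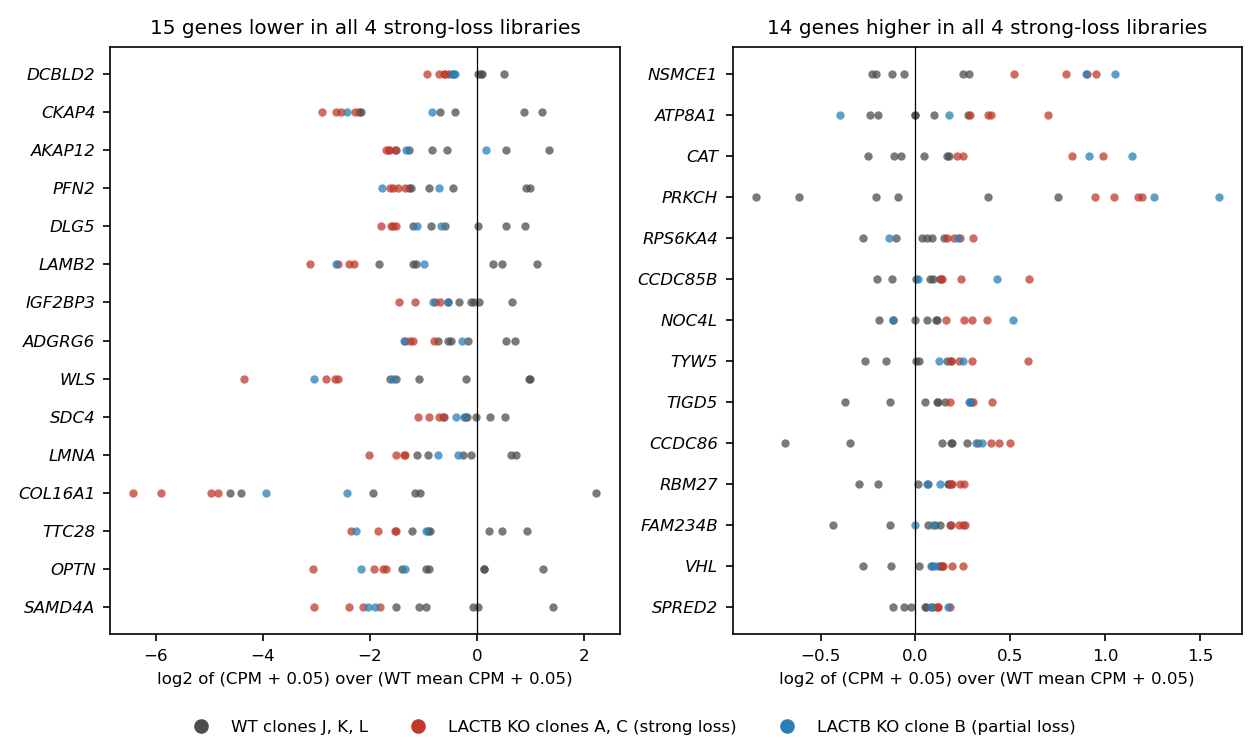
The 15 genes lower (left) and the 14 higher (right) in all 4 strong-loss libraries; the horizontal axis is the log2 ratio of each library to the mean of the WT libraries, with 0.05 CPM added to both. The lower genes have WT values spread over up to several log2 units with the strong-loss libraries at the low end, whereas the higher genes have log2 fold changes under 1 apart from PRKCH.

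The higher genes were fewer, less far from WT and of mixed function. NSMCE1, a RING-finger subunit of the SMC5/6 complex that maintains chromosomes, had the smallest p among them. It had 16.9, 17.4, 12.9 and 15.6 CPM in A1, A2, C1 and C2, whereas WT clone J had 7.65 and 8.63 CPM, clone K had 11 and 10.7 CPM and clone L had 8.24 and 7.78 CPM. Clone B was at 16.8 and 18.7 CPM, so that all 6 LACTB KO libraries lay above the WT libraries whether LACTB was at 7.42 or at 52.6 CPM. The log2 fold change was 0.80 (SE 0.191, adjusted p = 0.632), and it was one of the 2 higher genes that DESeq2 called, with LDB2. NSMCE1 lies on the minus strand of chromosome 16, from 27224994 to 27268772.

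PRKCH, a protein kinase C, had 8.78, 8.18, 9.72 and 9.59 CPM in the strong-loss libraries and 10.2 and 12.9 CPM in clone B, against 2.34 to 7.14 CPM in WT (median 3.80 CPM). Its log2 fold change was 1.10 (SE 0.370, adjusted p = 0.892). WT clone K came nearest, with 5.53 and 7.14 CPM. ATP8A1, a flippase that moves phosphatidylserine to the inner leaflet of membranes, had 20.8, 19.5, 21.1 and 26.0 CPM against 13.5 to 19.4 CPM in WT, and 12.1 and 18.0 CPM in clone B. It differed little in size, by 0.45 on the log2 scale (SE 0.134, adjusted p = 0.779).

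CAT, which encodes catalase, the peroxisomal enzyme that breaks down hydrogen peroxide, did not have one level in the strong-loss clones. Clone A had 84.5 and 82.6 CPM, just above WT clone L at 80.3 and 79.7 CPM. Clone C had 140.9 and 125.6 CPM, near clone B at 133.9 and 156.5 CPM, and clones J and K had between 59.7 and 73.4 CPM. The log2 fold change was 0.61 (SE 0.194, adjusted p = 0.824), and it was 0.89 without clone A and 0.25 without clone C. CAT spans 34438934 to 34472060 on the plus strand of chromosome 11. CAPRIN1, NAT10, APIP and PDHX, the other well-expressed protein-coding genes within 500000 bases of it, had log2 fold changes between -0.02 and 0.07. The 250 bases before its start in RefSeq (chr11:34438684-34438933, GRCh38.p14, plus strand) are shown because CAT had different levels in the 2 strong-loss clones, with CCAAT, a common promoter element, in capitals on either strand (CCAAT or ATTGG).
CAT: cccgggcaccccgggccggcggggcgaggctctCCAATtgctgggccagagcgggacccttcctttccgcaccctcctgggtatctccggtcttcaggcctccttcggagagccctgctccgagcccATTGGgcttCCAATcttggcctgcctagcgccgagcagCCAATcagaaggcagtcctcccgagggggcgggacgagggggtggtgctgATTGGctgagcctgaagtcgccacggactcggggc
The window held 5 matches. Of 27305 RefSeq promoters, 0.363% held 5 or more over the same 250 bases, and 33.0% held at least 1 on either strand. A match is a description of the letters only. The sequence is that of the reference genome, not of the clones, and so does not bear on the difference between them.

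The remaining 10 higher genes, RPS6KA4, CCDC85B, NOC4L, TYW5, TIGD5, CCDC86, RBM27, FAM234B, VHL and SPRED2, had log2 fold changes between 0.13 and 0.42. In VHL, the substrate receptor that marks HIF proteins for degradation, the strong-loss libraries stood at 154.1 to 166.6 CPM against 115.7 to 153.9 CPM in WT, so that the groups were apart by less than the spread within either.

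Clone B, which kept more of the transcript, was set against the clones with strong loss of it. Clone B is 1 clone and its protein is not known from these data, so the contrast cannot be read as one of LACTB dose. In a fit of 3 groups over all 6 clones, in which clone B alone was taken to vary like the others, 0 of 19507 genes had an adjusted p under 0.05 between the strong-loss clones and clone B (0%), and 306 had an unadjusted p under 0.05 (1.57%), 140 higher (0.718%) and 166 lower (0.851%). No gene can be called particular to the strong-loss clones from this. With the differentiation as a replicate block over the 12 libraries, 4 genes other than LACTB passed, IRAK4, PUS7L, NEK9 and LINC01357, all higher in the strong-loss clones. That fit takes the 2 libraries of a clone as independent, and its calls rest on 1 clone on the side of clone B. IRAK4, a kinase of Toll-like receptor signaling, had 39.7, 40.3, 40.9 and 41.5 CPM in the strong-loss libraries, 32.7 to 43.8 CPM in WT and 18.6 and 18.1 CPM in clone B. PUS7L, a pseudouridine synthase, had 28.7 to 34.2 CPM, 26.5 to 34.1 CPM and 13.1 and 14.8 CPM. They are neighbours on chromosome 12, PUS7L on the minus strand from 43718992 to 43758793 and IRAK4 on the plus strand from 43758944 to 43798307. NEK9, a mitotic kinase, had 118.7 to 145.0 CPM, 95.8 to 148.6 CPM and 58.1 and 69.6 CPM. In these 3 genes the strong-loss clones overlapped WT, and clone B was the one that stood apart.

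**Figure D4:**
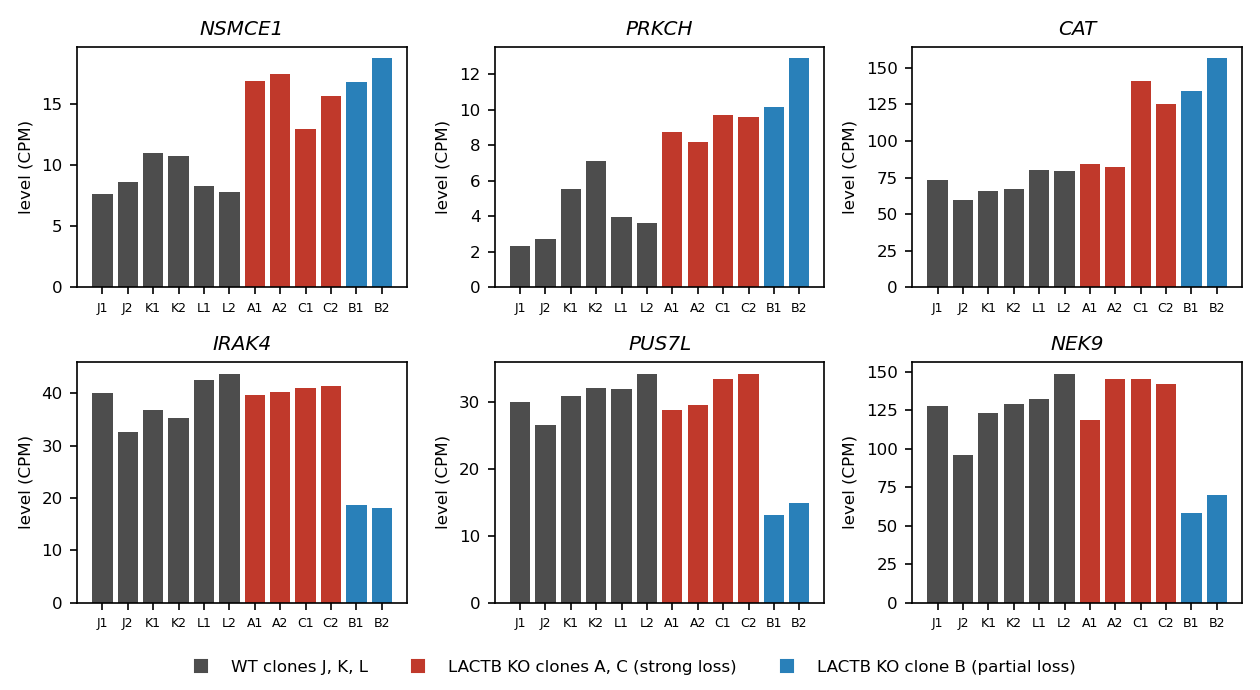
Level in CPM (vertical axes, from 0) of 6 genes in each of the 12 libraries (horizontal axes). NSMCE1 and PRKCH are higher in all LACTB KO libraries, CAT in clones C and B, whereas IRAK4, PUS7L and NEK9 are low in clone B only.

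Over the lists of processes tied to LACTB the median log2 fold changes were near 0, with single genes farther from it outside oxidative phosphorylation. Of 80 nuclear genes of oxidative phosphorylation tested, 29 had a positive and 51 a negative log2 fold change, 0 had an unadjusted p under 0.05, and they ranged from -0.13 to 0.12 around a median of -0.02. ATP5F1D and ATP5PD, subunits of ATP synthase, had the smallest p of that list, with log2 fold changes of 0.12 and 0.10. The 13 transcripts of the mitochondrial genome that encode subunits had a median of 0.00, with 0 at that threshold. SDHA, the catalytic subunit of succinate dehydrogenase, had 115.0 to 133.9 CPM in the strong-loss and 109.8 to 143.9 CPM in the WT libraries, a log2 fold change of 0.01 (SE 0.0848). Of 26 genes that shape mitochondrial membranes, 17 were positive and 9 negative, with a median of 0.02. The farthest from 0 was MTFR2, a regulator of mitochondrial fission, at 0.36 (SE 0.247, adjusted p = 0.966). OPA1, which keeps cristae closed, had a log2 fold change of 0.08 (SE 0.0801), and IMMT, the core of the MICOS complex at cristae junctions, of 0.03 (SE 0.0786).

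Of 33 genes of carnitine and succinate metabolism, 21 were positive and 12 negative, with a median of 0.02. An unadjusted p under 0.05 was found in 1, where 4.9% of all genes tested had one. That gene was SUGCT, a glutarate CoA-transferase that can use succinyl-CoA, with at most 0.186 CPM in the strong-loss and 1.39 CPM in the WT libraries, too few reads for a fold change to be read. CPT1C, a carnitine palmitoyltransferase of neurons, was as low, at 0.221 to 0.326 CPM against 0.0718 to 1.10 CPM. SLC22A5, the carnitine importer of the plasma membrane, had 6.66 to 11.3 CPM against 3.94 to 8.21 CPM, a log2 fold change of 0.38 (SE 0.202, adjusted p = 0.966). CPT2 and CRAT, which exchange acyl groups between carnitine and coenzyme A, had log2 fold changes of -0.05 and -0.04 (SEs 0.134 and 0.0909). SUCLA2, SUCLG1 and SUCLG2, the subunits of succinyl-CoA ligase, were at 0.02, 0.03 and 0.12 (SEs 0.0838, 0.136 and 0.0822). Of 13 genes of phosphatidylethanolamine and phosphatidylserine synthesis, none had an unadjusted p under 0.05 (median 0.01), and PISD, the decarboxylase of the inner membrane that makes the former from the latter, was at 0.01 (SE 0.0889).

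Of 27 genes that store triacylglycerols and cholesterol esters, none had an unadjusted p under 0.05, and the median was -0.09. MGLL, the lipase that splits monoacylglycerols, was lowest among them, with a log2 fold change of -1.72 (SE 0.735, adjusted p = 0.966). It had 10.8 to 12.1 CPM in the strong-loss libraries, 119.3 CPM in J2 and 9.49 to 25.2 CPM in the other WT libraries, and its log2 fold change was -0.71 without clone J. Of 25 genes of cholesterol synthesis and uptake, 22 were negative, where 48.6% of all genes tested were, and 3 positive. None reached that threshold, and the median was -0.15. ACAT2, which makes the acetoacetyl-CoA that enters the pathway, had 40.7 and 77.4 CPM in A1 and A2 and 41.1 and 86.1 CPM in C1 and C2. WT clone J had 131.3 and 141.0 CPM, clone K had 40.8 and 83.3 CPM and clone L had 61.2 and 173.6 CPM. In each of these clones the level was higher in differentiation 2 than in differentiation 1, and the groups overlapped. Without clone J the median of the list was 0.02.

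Among the lists on growth and stress, that of DNA replication had the median farthest from 0. Of 50 genes of DNA replication, 49 had a positive log2 fold change, where 51.4% of all genes tested did, and 1 an unadjusted p under 0.05, with a median of 0.20. That gene was RFC2, a clamp loader subunit, with 62.4, 62.4, 51.4 and 54.3 CPM against 35.9 to 54.9 CPM in WT and an adjusted p of 0.966. Summed over the list, the strong-loss libraries held 2324 to 2776 CPM. WT clone J held 1476 and 1700 CPM and K2 held 1753 CPM, whereas K1, L1 and L2 held 3133, 2479 and 2491 CPM, so that the strong-loss range lay within that of WT. The median was 0.03 without clone J and 0.00 without J1 and K2. Of 42 genes of mitosis, 39 were positive (median 0.10), and of 79 cytosolic ribosomal proteins, 71 (median 0.05), with 0 of either list at an unadjusted p under 0.05. The median for mitosis was 0.02 without clone J, and that of the ribosomal proteins was -0.01 without LACTB KO clone A. CKS1B and PTTG1, regulators of the cell cycle, were at 0.20 and 0.21, and RPL10A and RPL36A at 0.14 and 0.11. Of 27 genes of the integrated stress response, 20 were negative and 6 had an unadjusted p under 0.05 with lower values (over all genes tested, 4.51%), with a median of -0.13 that was -0.03 without clone J. The pair with the smallest p, VLDLR, a lipoprotein receptor, and STC2, a secreted glycoprotein, were at most at 0.797 and 1.49 CPM in the strong-loss libraries and in WT were highest in J1 and K2, with 7.39 and 5.77 CPM of VLDLR and 9.16 and 9.97 CPM of STC2. Of 27 p53 targets, 0 had an unadjusted p under 0.05 (median -0.01), and DDB2, a DNA damage sensor, was at -0.18.

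Of 35 genes of microglial identity, 22 were negative and 13 positive, with a median of -0.14 and 1 at an unadjusted p under 0.05. That gene was GAS6, a ligand of the receptor MERTK that stromal cells also make, with 14.5 to 28 CPM in the strong-loss libraries and 21.0 to 115.2 CPM in WT, where K2 and J1 were highest. P2RY12, the purinergic receptor of resting microglia, had 75.8, 128.8, 120.2 and 107.8 CPM against 61.6 to 106.9 CPM, a log2 fold change of 0.42 (SE 0.170, adjusted p = 0.966). Of 24 genes of disease-associated microglia, 19 were negative, where 48.6% of all genes tested were, and 5 positive. None reached that threshold, and the median was -0.32. GPNMB, a glycoprotein of lipid-laden phagocytes, had 144.7, 27.8, 43.7 and 54.6 CPM against 1635 CPM in J2 and 21.4 to 167.4 CPM in the other WT libraries. The median of that list was -0.04 without clone J. Of 35 genes of efferocytosis and lipid export, 26 were negative and 5 had an unadjusted p under 0.05 with lower values (median -0.24), where 48.6% and 4.51% of all genes tested did. One of them was ITGAV, the integrin subunit that binds apoptotic cells through bridging proteins, with 125.4, 140.0, 155.4 and 119.5 CPM against 147.6 to 239.4 CPM in WT and 158.3 and 174.7 CPM in clone B (log2 fold change -0.60, SE 0.174, adjusted p = 0.755).

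Of all genes tested, 51.4% were positive and 48.6% negative. An unadjusted p under 0.05 came with higher values in 0.387% and with lower values in 4.51%. Of 46 interferon response genes, 27 were positive and 19 negative, with 0 at an unadjusted p under 0.05 and a median of 0.02. Of 17 MHC class II genes, 15 were positive and 1 had such a p (median 0.22), and without clone J the median was -0.00. CD74, the invariant chain, had 6090 to 7751 CPM in the strong-loss libraries and 1650 to 9543 CPM in WT, and CIITA, the regulator of the locus, 255.4 to 463.0 CPM and 45.7 to 535.8 CPM. In both, the strong-loss values lay inside the WT range. Of 28 genes of TNF and NF-kB feedback, 21 were negative, 2 had an unadjusted p under 0.05 with lower and 1 with higher values (median -0.10). The higher one was IRAK2, a kinase of interleukin-1 signaling, with 30.8, 28.5, 23.7 and 33.4 CPM against 19.1 to 27.1 CPM (adjusted p = 0.832). Of 44 cytokines and chemokines, 29 were negative and 7 had an unadjusted p under 0.05 with lower values (median -0.23), where 48.6% and 4.51% of all genes tested did. LIF and IL11, cytokines of the IL-6 family, were at most at 0.704 and 0.111 CPM in the strong-loss libraries and reached 10.3 CPM in K2 and 2.52 CPM in J1.

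Of the 24 gene lists, the 4 with the most negative medians were those on adhesion and patterning. These lists too were chosen with earlier results of these data known, so their counts are a description. Over all genes tested, 48.6% were negative and 4.51% had an unadjusted p under 0.05 with lower values. Of 51 integrins, laminins and cadherins, 44 were negative and 19 had an unadjusted p under 0.05 with lower values (median -0.96). Of 57 genes of axon guidance and Notch signaling, 45 were negative and 13 had such a p (median -0.42), and of 28 clustered protocadherins, 25 were negative and 3 had such a p (median -0.89). ITGA3, a laminin-binding integrin subunit, had 3.81, 2.86, 2.79 and 2.55 CPM against 1.98 to 22.1 CPM in WT, with K1 and L2 again low. NOTCH3, the Notch receptor of mural cells, was at 0.185 to 0.869 CPM against 0.431 to 21.5 CPM. Of 10 HOX genes tested, 10 were negative and 5 had an unadjusted p under 0.05 (median -3.13, or -2.74 with the gene at 0 in all 4 strong-loss libraries put at a floor of 3 counts over the group). Their levels were low throughout, summing to 0.627 to 5.14 CPM in the strong-loss and to 1.27 to 23.9 CPM in the WT libraries. Without J1 and K2, the median of the integrin list was -0.49, that of the protocadherins -0.70 and that of the axon guidance list -0.22. The part that the stromal transcripts of J1 and K2 had in these medians was not tested.

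**Figure D5:**
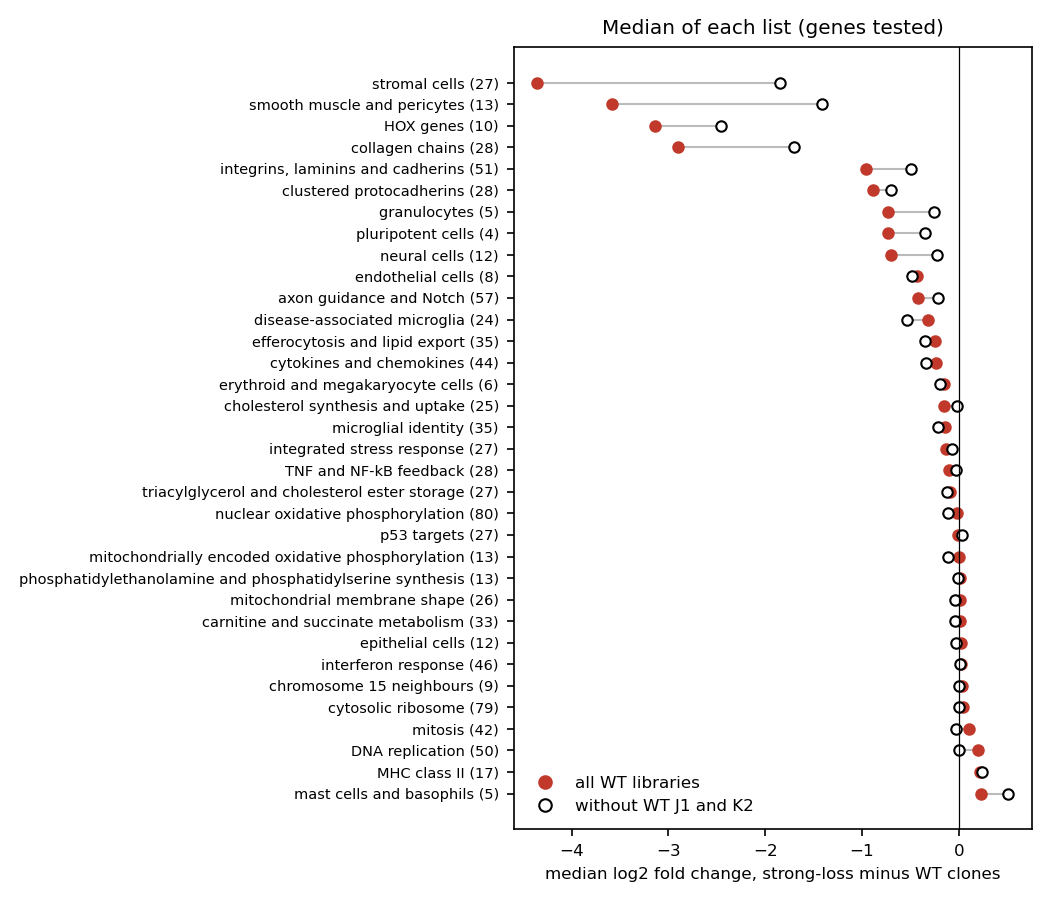
Median log2 fold change between strong-loss and WT clones (horizontal axis) over the genes tested in each of 24 gene lists and 10 marker lists (vertical axis, number of genes in brackets), with all WT libraries (red) and without J1 and K2 (open circles). Stromal, smooth muscle and collagen medians move from -4.36, -3.59 and -2.90 to -1.85, -1.41 and -1.71, while lists of mitochondrial genes stay near 0. J1 and K2 were left out for their high stromal sums, so the move of the stromal median was built into that choice.

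The remaining marker lists held few genes, and their counts stand beside the same 4.51% lower and 0.387% higher over all genes tested. Of 8 endothelial markers 3 (median -0.43), and of 12 neural markers 3 (median -0.70), had an unadjusted p under 0.05 with lower values. Of 5 granulocyte, 5 mast cell and basophil and 12 epithelial markers, 0 had such a p in either direction. Of 6 erythroid and megakaryocyte markers 1 had such a p with lower values, and of 4 markers of pluripotent cells 1 had lower and 1 higher values. Of the 9 neighbours of LACTB on chromosome 15 that were tested, 1 had an unadjusted p under 0.05, TPM1, a tropomyosin of contractile filaments. It had 15.7, 9.27, 10.6 and 9.78 CPM in the strong-loss libraries and 8.76 to 181.5 CPM in WT, with K1 and L2 at 8.76 and 11.1 CPM. APH1B, a subunit of gamma-secretase beside LACTB, had 20.3, 27.3, 32.9 and 24.9 CPM against 25.4 to 31.9 CPM, a log2 fold change of -0.12 (SE 0.103, adjusted p = 0.966).

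By their whole profile the strong-loss clones did not stand apart as a pair. The nearest other library of A1 was WT L2, that of A2 was C2, that of C1 was C2, and that of C2 was again WT L2. Libraries of the same clone did not group either. The nearest library of J1 was K2 and that of K1 was B1. Only C1 was nearest to the other library of its own clone, so the lack of grouping was not particular to strong loss. Clones A and C differed by more than 1 log2 unit in 844 of 18100 genes (4.66%), and clones C and L in 838 (4.63%), whereas A and J differed in 2347 (13%) and J and K in 1829 (10.1%). The effect of strong loss did not differ between the differentiations after adjustment in any of 15980 genes (0%), with 190 at an unadjusted p under 0.05 (1.19%).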

How the data were processed

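Bulk polyA RNA-seq of WTC11 iMGLs was analysed in 10 libraries, 6 from WT clones (J, K, L) and 4 from LACTB KO clones A and C, with the 2 libraries of clone B beside them. The authors trimmed the paired reads, aligned them to hg38 (STAR) and deposited estimated counts for each gene, not scaled between libraries. The counting tool, annotation and strand setting are not given in the sources used here. Fractions made up 10.8% to 11.5% of a library's values, which were rounded before summing per clone. Coordinates came from GENCODE 44, which held 62639 of 62703 gene identifiers.

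Clones were compared by edgeR 4.0.16 in R 4.3.3 (TMM, filterByExpr, quasi-likelihood test, Benjamini-Hochberg adjustment, threshold 0.05). TMM factors ranged from 0.979 to 1.02. CPM values are not TMM-scaled. The study's mixed model (DREAM) was not used here. Clones, gene lists and tests were chosen with earlier results of these data known. Named were LACTB, the 15 protein-coding genes per direction with the smallest p (those that passed or, failing that, with all 4 strong-loss libraries on one side of the 6 WT libraries and a group mean of at least 5 CPM), and the 2 genes of smallest p in each list. One gene that the rule named is not reported here. Other genes were named after their values were seen. Steps were tested on simulated counts with the same small spread for every gene, which many genes here exceed. That does not show how often the test would find a difference in these data. Floors cover counting error only.

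Replicate numbers are differentiations, which the labels mark as batches crossing all clones, so a model of single libraries with the differentiation as replicate block was an alternative. Deviations were taken from the mean of the WT libraries or of all LACTB KO libraries, clone B included. They correlated by 0.0199 on average over 12 pairs of a strong-loss and a WT library of the same differentiation (-0.234 to 0.396). Over 12 pairs of different differentiations the average was -0.0141. Some lists nevertheless shifted with the differentiation. From differentiation 1 to 2, summed cholesterol genes rose in every clone (2223 to 4728 CPM in L, 4009 to 4269 CPM in J). Mitochondrially encoded transcripts fell in every clone (46460 to 28930 CPM in L, 39420 to 37090 CPM in A). The other alternatives were RLE normalization, no expression filter, DESeq2 1.42.0 and voom of limma 3.58.1 with a random clone effect. Single differentiations, clone B included and each clone left out were also run. In the voom fit, the correlation estimated between the libraries of a clone was 0.094. Leaving out J1 and K2, the WT libraries with the highest summed stromal markers, was added after the data were seen. Y-linked genes and XIST were not named.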

Additional observations from a re-analysis of the deposited data

Results flagged for a closer look

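Within a group of 4 or 6 libraries, 1 library stood far from the others in 12 of 220 sets of values examined (75 genes and 34 lists, plus LACTB, each in the WT and in the strong-loss libraries), by a limit that is set to let about 1 in 20 sets through by chance. In the strong-loss libraries, A2 was lowest in WLS (0.435 CPM, others 1.37 to 1.59 CPM), OPTN (1.70 CPM, others 3.80 to 4.43 CPM), GBP2 (0.181 CPM, others 0.447 to 0.497 CPM) and SUGCT (0 CPM, others 0.148 to 0.186 CPM). A1 was lowest in MTFR2 (2.98 CPM, others 5.29 to 5.77 CPM) and highest in SPRED2 (82.97 CPM, others 78.7 to 79.4 CPM), PRELID3B (87.5 CPM, others 66.6 to 67.6 CPM) and in the mean log2 level of the genes of mitochondrial membrane shape (5.36, others 5.23 to 5.25). All 8 such values among the strong-loss libraries were in clone A. Since 12 of 220 is close to 1 in 20, no conclusion on clone A is drawn from them. In the WT libraries, K2 was highest in LACTB (98.4 CPM, others 71.1 to 79.9 CPM) and in the mean log2 level of granulocyte markers (5.56, others 3.77 to 4.27), K1 in ATP5F1D (50.1 CPM, others 40.4 to 43.7 CPM) and J2 in the mean log2 level of microglial identity genes (7.82, others 7.26 to 7.43).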

How the results depend on the processing

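The count of genes between strong-loss and WT clones depended on the filter, the tool and the clones. At an adjusted p under 0.05, higher and lower counts were 0 and 0; without the expression filter they were 5 and 296, and with DESeq2 2 and 315, of which 270 genes were called by both. With single clones left out they ranged from 0 to 7 and from 0 to 149, the upper values without WT clone L, and without WT clone J 1 lower gene (ANKRD1) passed. At an unadjusted p, 70 and 817 became 274 and 1630 without the filter, 121 higher with the differentiation as replicate block, 116 and 224 with voom, 183 lower in differentiation 1, 156 and 406 in differentiation 2, 141 higher with clone B included, and 190 lower without J1 and K2. With single clones left out the unadjusted counts ranged between 28 higher, when clone A was dropped, and 279 higher and from 368 to 1353 lower (both upper values without WT clone L, 418 lower without LACTB KO clone C). Between strong-loss clones and clone B, 0 and 0 at an adjusted p became 1 (LINC01357) and 1 (ELN) without the filter and 4 higher with the replicate block, and 140 and 166 at an unadjusted p became 278 and 414 without the filter and 91 lower with the block. The replicate block changed no other call. The cause of these shifts was not tested. Of 46 genes named from the lists, 41 kept their direction under each alternative. The direction of the 29 genes named for the separation of their libraries was fixed by that choice wherever libraries were left out. Signs turned in 5 genes that had an unadjusted p over 0.05, ATP5PD (-0.00149 in differentiation 2, and from -0.00344 without clone A to 0.206 without clone C), MT-ND6 (from -0.37 without clone K to 0.0706 without clone J), MT-ATP8 (-0.0329 without clone K, and from -0.0924 without clone A to 0.37 without clone C), CPT1C (-0.83 with all libraries, 0.134 without J1 and K2) and GPNMB (-2.51 with all libraries, 0.0173 in differentiation 1). With 2 clones against 3, an exact permutation test has 10 splits and cannot reach 0.05.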

Other observations

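A gene outside the lists split the clones without following the genotype, and its values were seen before it was chosen. ZNF680, a zinc finger gene, had 0 to 0.0718 CPM in the 4 libraries of WT clones J and K, 5.82 and 4.95 CPM in WT clone L, 4.10 to 4.78 CPM in the strong-loss libraries and 5.68 and 4.63 CPM in clone B. It was among the 7 higher genes that passed in edgeR without clone L.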
